A study of Homo sapiens with 4 samples.

Results

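Named antisense RNAs are non-coding genes that lie opposite a protein-coding gene and take its symbol with the suffix AS and a number, so that VIM-AS1 is the antisense RNA of VIM. Members were the rows of the deposited table annotated as antisense, with such a name, with a protein-coding gene of that symbol in the table, and with a mean of at least 100 normalized counts over the 4 libraries. There were 330 of them among 25122 genes, and they pointed to 326 distinct partner genes. A further 316 named antisense rows with a coding partner had a mean under 100 and were not members. Members were thus selected on their mean over all 4 libraries. Of them, 18 had a mean under 100 in one group and passed only through the other group, in which they were higher, so their direction of difference is not independent of the choice.

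The cells were Jurkat, a human T-cell leukaemia line in long use, labelled wild type. One group of 2 libraries carried shBDH1, a short hairpin RNA against BDH1, the mitochondrial enzyme that interconverts the ketone bodies acetoacetate and beta-hydroxybutyrate. The other group of 2 libraries carried the control hairpin shcontrol. The labels name no time, dose, number of hairpin sequences or separate cultures, and no restored MYC, which the series' design text mentions, so the spread that p-values measure is that of 2 libraries a group and may be technical only. RNA was made into mRNA libraries and read as paired ends. Values are normalized counts, that is reads per gene divided by 1 size factor per library, and are not divided by gene length.

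The libraries held 29453383 and 28777374 reads in genes for shBDH1, against 28681511 and 28797402 for shcontrol. BDH1 itself had 1221 and 1412 in shBDH1, against 1725 and 1911 in shcontrol (log2 fold change -0.47, SE 0.08, adjusted p = 1.54e-05), a reduction and not a loss. Across the table, 970 and 1067 genes were at 0 in the shBDH1 libraries, against 1601 and 1644 in the shcontrol libraries. All 8 T-lineage markers listed were in the table, and their summed level was 66176 to 66401 in shBDH1 and 52251 to 52298 in shcontrol libraries. Of the 8, 7 rose and CD3G fell, with 2887 and 2665 normalized counts in shBDH1, against 3198 and 3487 in shcontrol (log2 fold change -0.27, adjusted p = 0.0005). The 3 B-cell markers found summed to 666 to 686 in shBDH1 and 219.7 in both shcontrol libraries, most of it CD79A. The 4 NK markers summed to 190.1 to 241 in shBDH1 and 82.8 to 89.3 in shcontrol. Of these NK markers, only NKG7 and NCAM1 were higher in shBDH1. The means of GNLY and KLRD1 were lower in shBDH1, with libraries that overlap between the groups. The 3 myeloid markers found summed to 46.3 to 66.8 in shBDH1 and 51.3 to 53.2 in shcontrol, and the 1 erythroid marker found to 16.7 to 71.4 in shBDH1 and 32.9 to 35.8 in shcontrol. The 2 fibroblast and epithelial markers found summed to 694 to 706 in shBDH1 and 604 to 607 in shcontrol. They went in different directions, with means in shBDH1 and shcontrol of 540 and 397 for COL1A1 and of 160 and 208 for KRT18. The part of these shifts in the changes of the antisense rows was not tested.

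Antisense transcripts are common at mammalian genes. Many start at the same promoter as the coding gene and run away from it, head to head, some start downstream and run back across its last exons, tail to tail, and some lie within an intron or exon of the partner. Individual ones are known to hold down, stabilise or help transcribe the gene opposite them, and others have roles unrelated to it. In sequencing, the strand of a read is what separates an antisense RNA from the gene it crosses. The strand setting behind the deposited counts is not given in the sources used here, so reads of a gene and of its antisense partner cannot be told apart where their exons and spans cross. Each value below is therefore the value of an annotated row, and the coding exons that lie opposite the members are set beside the rows after the changes have been described.

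By their layout in GENCODE 29 (assembly GRCh38, the build called hg38), 120 members overlapped their partner head to head, 96 lay inside the partner's span, 83 overlapped it tail to tail, 21 spanned the whole partner and 10 did not overlap it. In 115 pairs, head to head or divergent, a start of the antisense gene lay within 1000 bases of a start of the partner, at a median distance of 115 bases. The upstream sequences of 5 such partners are shown because they lie between or beside neighbouring starts of a coding gene and its antisense gene. VLDLR, DACT3, BHLHE40 and STXBP5 belong to pairs that changed in one direction and have a RefSeq start within 1000 bases of an antisense start. These 4 were picked for large changes, but not from every such pair. TMCC1, chosen after its values were seen, is a pair that changed in opposite directions. The window of ACVR2B, from another such pair, held none of the motifs searched and is not printed. Each run is the 250 bases before the partner's RefSeq start (assembly GRCh38.p14), 5′ to 3′ on the partner's strand, with searched motifs in capitals.
VLDLR: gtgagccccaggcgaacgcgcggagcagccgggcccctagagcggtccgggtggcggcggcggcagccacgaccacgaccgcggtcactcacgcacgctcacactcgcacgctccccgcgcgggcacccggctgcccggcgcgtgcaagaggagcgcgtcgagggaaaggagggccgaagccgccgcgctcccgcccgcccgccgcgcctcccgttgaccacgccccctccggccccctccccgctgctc
DACT3: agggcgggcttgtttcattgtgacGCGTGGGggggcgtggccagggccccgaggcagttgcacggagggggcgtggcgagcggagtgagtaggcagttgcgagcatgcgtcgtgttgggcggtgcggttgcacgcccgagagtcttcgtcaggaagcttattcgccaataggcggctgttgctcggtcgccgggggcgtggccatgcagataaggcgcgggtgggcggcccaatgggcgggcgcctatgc
BHLHE40: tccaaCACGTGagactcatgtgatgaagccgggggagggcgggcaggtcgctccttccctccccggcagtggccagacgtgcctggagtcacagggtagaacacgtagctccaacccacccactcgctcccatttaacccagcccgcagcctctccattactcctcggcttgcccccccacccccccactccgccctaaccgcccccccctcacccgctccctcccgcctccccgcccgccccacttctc
STXBP5: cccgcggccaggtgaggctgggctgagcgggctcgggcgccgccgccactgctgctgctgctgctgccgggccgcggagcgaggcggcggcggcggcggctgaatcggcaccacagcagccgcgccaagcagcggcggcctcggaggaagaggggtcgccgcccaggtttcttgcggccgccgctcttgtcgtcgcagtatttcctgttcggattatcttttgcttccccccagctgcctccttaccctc
TMCC1: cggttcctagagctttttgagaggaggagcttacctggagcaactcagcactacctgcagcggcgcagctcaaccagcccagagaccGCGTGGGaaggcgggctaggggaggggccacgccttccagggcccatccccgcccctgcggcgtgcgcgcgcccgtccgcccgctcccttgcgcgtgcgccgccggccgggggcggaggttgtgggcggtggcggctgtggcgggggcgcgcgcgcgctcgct

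The VLDLR run is chr9:2621537-2621786 on the plus strand, with the nearest antisense start 374 bases from the coding start. The others are DACT3 at chr19:46661183-46661432 (minus strand, 296 bases), BHLHE40 at chr3:4979187-4979436 (plus strand, 500 bases), STXBP5 at chr6:147204167-147204416 (plus strand, 123 bases) and TMCC1 at chr3:129893712-129893961 (minus strand, 100 bases). In TMCC1 3 annotated antisense starts lie inside the printed window, the first of them at base 80, and in the other 4 they lie outside it. The capitals mark CACGTG, the E-box bound by MYC and MAX among others, in BHLHE40, and GCGTGGG, a core of EGR sites, in DACT3 and TMCC1. VLDLR and STXBP5 held none of the 5 motifs searched on both strands, which were these plus TGACGTCA, CCGGAAG and TATAAA. Of 84 pairs with neighbouring starts and a usable RefSeq window, 14.3% held CACGTG and 14.3% held GCGTGGG, against 6.34% and 6.19% of 35116 windows of the same length over all RefSeq genes. CCGGAAG was in 9.5% of the 84 against 8.52%, TGACGTCA in 4.8% against 1.65%, and TATAAA in 4.8% against 10.7%. The 35116 windows were not filtered for coding genes, for expression or for a neighbouring start. The sets are therefore unlike, and their shares were not tested against each other. A match is a description of letters in these windows only.

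In shBDH1 cells, more antisense rows fell than rose, and most were not called. Using limma on log2(value + 1) over the 19301 genes with a mean of at least 10, with Benjamini-Hochberg adjustment and a threshold of 0.05, 53 of the 330 members rose (16.1%) and 75 fell (22.7%), or 38.8% in all. Over all genes tested 20.3% rose and 20.8% fell, or 41.1% in all. Over genes with a mean of at least 100, 23.5% rose and 27.5% fell, or 51.0%, and over protein-coding genes of that level 25.5% rose and 29.0% fell, or 54.5%. The members' shares were close to those of 1339 other antisense rows of the same minimum level, of which 17.0% rose and 20.2% fell (37.2% in all), and of 388 lincRNA rows, of which 16.8% rose and 19.3% fell (36.1% in all). Their median log2 fold change was -0.08, against -0.01 over all genes tested. Called changes of at least 2-fold were few, with 4 up and 6 down. The count of members that rose was 34 without shBDH1 replicate 1.

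The gap to the coding genes differed with level. Among members with a mean of 100 to 300 normalized counts 27.0% were called, against 40.4% of coding genes in that range, and with a mean of 300 to 1000, 35.6% against 47.4%. From 1000 up, 60.5% of 86 members were called, against 60.8% of 6664 coding genes. The values of the shBDH1 and shcontrol libraries did not overlap in 228 members (69.1%), the same share as over all genes tested (69.0%).

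**Figure D1:**
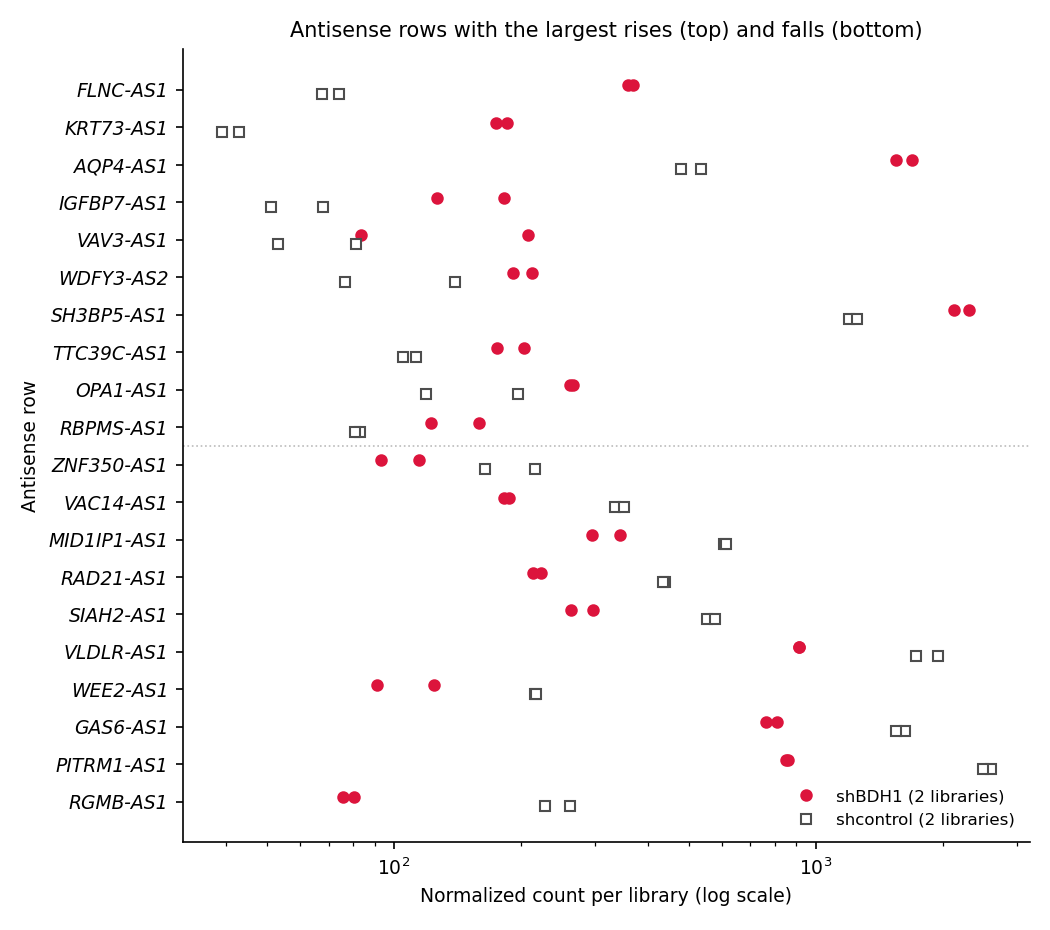
Normalized counts of the 10 members with the largest rises and the 10 with the largest falls, on a log scale, with 1 filled circle per shBDH1 library and 1 open square per shcontrol library. FLNC-AS1 shows the widest gap upward, at 369 and 359 in shBDH1 against 73.9 and 67.5 in shcontrol, and in VAV3-AS1 the lower shBDH1 library lies close to the higher shcontrol library.

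Of the 20 members named here for the largest rises and falls, 6 had a mean under 100 in one group, FLNC-AS1, KRT73-AS1, IGFBP7-AS1, VAV3-AS1 and RBPMS-AS1 in shcontrol and RGMB-AS1 in shBDH1. They are members through the group in which they are high, and their size of change is a description. The 3 largest rises lay opposite genes known for roles in muscle, hair follicle and brain. FLNC-AS1 (chr7:128850162-128862626), which runs tail to tail into FLNC, the gene of the muscle actin cross-linker filamin C, had 369 and 359 normalized counts in shBDH1, against 73.9 and 67.5 in shcontrol (log2 fold change 2.35, SE 0.20, adjusted p = 1.57e-10). FLNC had 1038 and 917 normalized counts in shBDH1, against 195 and 119.6 in shcontrol (log2 fold change 2.67, SE 0.16, adjusted p = 9.13e-14). The groups stood far apart for both genes, and the antisense span holds 39.1% of the exonic bases of FLNC. KRT73-AS1 (chr12:52601467-52615305), tail to tail with the type II keratin gene KRT73, had 175 and 185 normalized counts in shBDH1, against 39.0 and 42.9 in shcontrol (log2 fold change 2.11, SE 0.28, adjusted p = 4.19e-07), and KRT73 had 243 and 177 normalized counts in shBDH1, against 38.0 and 30.7 in shcontrol. Here too every shBDH1 library was above every shcontrol library in both genes, and the antisense span holds 72.4% of the exonic bases of KRT73.

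At AQP4-AS1 the antisense row was high and its coding partner close to 0. AQP4-AS1 (chr18:26655742-27190698) spans the whole of AQP4, the water channel of astrocytes, and had 1549 and 1688 normalized counts in shBDH1, against 535 and 479 in shcontrol (log2 fold change 1.67, SE 0.09, adjusted p = 8.07e-15). AQP4 had 12.8 and 12.1 normalized counts in the shBDH1 libraries and was listed at 0 in both shcontrol libraries, a mean under the minimum of 10 for a test. The row averaged 1063 normalized counts over the 4 libraries, and its opposite-exon value, explained below, averaged 33.9.

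Among the other large rises, IGFBP7-AS1, head to head with the gene of a secreted binding protein of insulin-like growth factors, had 183 and 127 normalized counts in shBDH1, against 67.8 and 51.1 in shcontrol (log2 fold change 1.36, SE 0.28, adjusted p = 0.000235). SH3BP5-AS1, tail to tail with the gene of a mitochondrial outer-membrane protein that binds JNK, had 2134 and 2309 normalized counts in shBDH1, against 1202 and 1252 in shcontrol (log2 fold change 0.85, SE 0.07, adjusted p = 5.31e-11), and SH3BP5 had 2633 and 2636 normalized counts in shBDH1, against 1414 and 1484 in shcontrol, a change of 0.86 against 0.85 for the antisense row. The replicates of this pair lay close together and the groups far apart. WDFY3-AS2, head to head with the gene of the autophagy scaffold ALFY, had 192 and 212 normalized counts in shBDH1, against 139.6 and 76.7 in shcontrol (log2 fold change 0.96, SE 0.24, adjusted p = 0.00214), and without shcontrol replicate 2 its change was 0.53 (adjusted p = 0.0903).

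VAV3-AS1 rested on 1 library. VAV3 encodes a guanine nucleotide exchange factor, and its antisense row had 208 and 83.5 normalized counts in shBDH1, against 81.1 and 53.1 in shcontrol (log2 fold change 1.00, SE 0.33, adjusted p = 0.016). Without shBDH1 replicate 1 the change was 0.34 (adjusted p = 0.558), and without shcontrol replicate 2 it was 0.70 (adjusted p = 0.0723). TTC39C-AS1 (log2 fold change 0.79), OPA1-AS1 (0.78), whose partner is the GTPase of inner mitochondrial membrane fusion, and RBPMS-AS1 (0.76), whose partner is an RNA-binding protein, also rose, each with groups that do not overlap and with its partner up as well. Each of these 3 lost its call when 1 library was left out, TTC39C-AS1 at 0.69 (adjusted p = 0.0718) and RBPMS-AS1 at 0.58 (adjusted p = 0.199) without shBDH1 replicate 1, and OPA1-AS1 at 0.42 (adjusted p = 0.126) without shcontrol replicate 1.

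The largest falls included several antisense rows whose partner fell by nearly the same amount. PITRM1-AS1 (chr10:3141632-3167972) lies inside PITRM1, the gene of the mitochondrial presequence protease, and had 862 and 852 normalized counts in shBDH1, against 2609 and 2493 in shcontrol (log2 fold change -1.57, SE 0.07, adjusted p = 1.66e-16). PITRM1 had 1133 and 1252 normalized counts in shBDH1, against 3585 and 3742 in shcontrol, a log2 fold change of -1.62. The antisense span, itself a gene span with introns, holds 76.9% of the exonic bases of PITRM1. GAS6-AS1 (chr13:113815630-113845744), tail to tail with the gene of the ligand of the receptor kinases AXL, TYRO3 and MERTK, had 761 and 809 normalized counts in shBDH1, against 1631 and 1552 in shcontrol (log2 fold change -1.02, SE 0.08, adjusted p = 2.85e-11). GAS6 had 756 and 791 normalized counts in shBDH1, against 1667 and 1614 in shcontrol, so that both rows of this locus read nearly alike in every library, and the antisense span holds 89.1% of the exonic bases of GAS6.

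VLDLR-AS1 (chr9:2421597-2643359) starts head to head with VLDLR, a receptor for lipoproteins and reelin, whose upstream sequence is printed above. It had 911 and 913 normalized counts in shBDH1, against 1946 and 1734 in shcontrol (log2 fold change -1.01, SE 0.08, adjusted p = 1.56e-11), and VLDLR had 2115 and 1956 normalized counts in shBDH1, against 3575 and 3772 in shcontrol (log2 fold change -0.85, SE 0.06, adjusted p = 1.71e-12). Both genes were lower in every shBDH1 library than in any shcontrol library, while the antisense span holds 10.8% of the exonic bases of VLDLR. RGMB-AS1, inside the gene of a co-receptor for bone morphogenetic proteins, had 75.7 and 80.5 normalized counts in shBDH1, against 228 and 262 in shcontrol (log2 fold change -1.63, SE 0.22, adjusted p = 6.02e-07), the largest fall of the members in the fit over all libraries. RGMB had a log2 fold change of -0.55.

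SIAH2-AS1, inside the gene of a RING ubiquitin ligase, had 297 and 263 normalized counts in shBDH1, against 551 and 576 in shcontrol (log2 fold change -1.01, SE 0.13, adjusted p = 3.19e-07). RAD21-AS1, head to head with the gene of a cohesin subunit, had 223 and 214 normalized counts in shBDH1, against 439 and 434 in shcontrol (log2 fold change -0.996, SE 0.15, adjusted p = 2.26e-06), while RAD21 fell by 0.40 on the log2 scale. MID1IP1-AS1, inside the gene of a protein that promotes polymerisation of acetyl-CoA carboxylase, had 343 and 296 normalized counts in shBDH1, against 606 and 614 in shcontrol (log2 fold change -0.94, SE 0.13, adjusted p = 5.51e-07), and MID1IP1 fell by 0.28 on the log2 scale. In all of these the replicates lay closer to each other than the groups did. WEE2-AS1 (-1.01), which spans the gene of an oocyte kinase, and VAC14-AS1 (-0.89), inside the gene of a scaffold of the phosphoinositide kinase PIKfyve, fell together with their partners. ZNF350-AS1 fell by 0.86, and its partner ZNF350, a zinc finger repressor, was not called at -0.13 (adjusted p = 0.812). Without shcontrol replicate 1 the fall of ZNF350-AS1 was 0.66 on the log2 scale (adjusted p = 0.0744).

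The most abundant members were not the ones that changed most. VIM-AS1, head to head with the intermediate filament gene VIM and known from human cells to help keep the VIM promoter active, had 6233 and 6447 normalized counts in shBDH1, against 4844 and 4906 in shcontrol (log2 fold change 0.38, SE 0.05, adjusted p = 7.69e-08), and VIM rose as well, by 0.43 on the log2 scale. TSPOAP1-AS1 had 5217 and 5532 normalized counts in shBDH1, against 3468 and 3587 in shcontrol (log2 fold change 0.61, SE 0.05, adjusted p = 5.79e-11). TSPOAP1 itself was not called, with 539 and 657 normalized counts in shBDH1, against 606 and 483 in shcontrol (adjusted p = 0.405). FGD5-AS1, tail to tail with a guanine nucleotide exchange factor gene, had 6771 and 6834 normalized counts in shBDH1, against 5529 and 5404 in shcontrol (log2 fold change 0.32, SE 0.04, adjusted p = 9.74e-07). FGD5 had 1059.5 and 1209 normalized counts in shBDH1, against 589 and 535 in shcontrol (log2 fold change 1.01, SE 0.10, adjusted p = 1.45e-09). Per kilobase of exonic sequence FGD5-AS1 stood at a mean of 1196 normalized counts and FGD5 at 105. For these 3 abundant RNAs every shBDH1 library was above every shcontrol library. GABPB1-AS1, head to head with the gene of a subunit of the ETS factor GABP, was not called, with 4406 and 4268 normalized counts in shBDH1, against 4784 and 4539 in shcontrol (log2 fold change -0.10, SE 0.05, adjusted p = 0.0951). The highest mean, 11060.0 normalized counts, belonged to SDCBP2-AS1, which was not called either (log2 fold change 0.08, SE 0.04, adjusted p = 0.0972). ABHD15-AS1 and PLCG1-AS1 were not called at log2 fold changes of -0.06 and -0.02 (adjusted p = 0.346 and 0.732), and PRC1-AS1 rose by 0.21 on the log2 scale (adjusted p = 0.000358). At the other end, MCF2L-AS1, SRRM2-AS1 and EP300-AS1 entered with means of 100.2, 101 and 101, while EXTL3-AS1, RHOXF1-AS1 and ZMIZ1-AS1 fell short with 99.8, 98.9 and 97.9.

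Where both genes of a pair were called, antisense row and partner mostly changed in the same direction. Of the partners tested 54.6% were called, against 48.9% of the 13510 protein-coding genes with the same minimum mean of 10 and the 54.5% given above for a minimum of 100. Of 317 distinct partners tested 87 rose (27.4%) and 86 fell (27.1%), with a median log2 fold change of -0.01. In 321 pairs both genes could be tested, and in 94 both were called. In 90 of these 94 the direction was the same, and in 4 it was opposite. In 31 pairs the member was called and the partner was not, and in 81 the partner was called and the member was not. Over the 321 pairs the log2 fold changes of member and partner had a Pearson r of 0.66 and a Spearman coefficient of 0.62, as a description over pairs that share the same 4 libraries and, in many cases, the same stretch of genome.

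**Figure D2:**
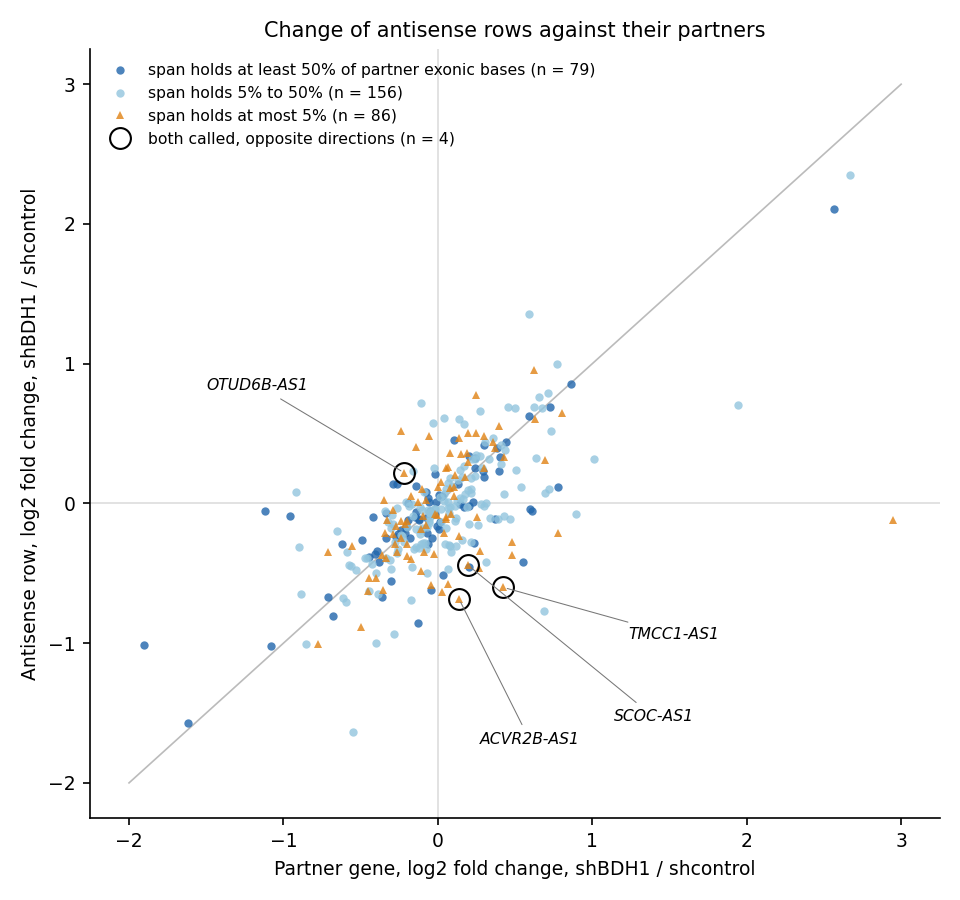
Log2 fold change, shBDH1 over shcontrol, of each antisense row on the vertical axis against that of its partner on the horizontal axis for the 321 pairs tested, marked by the share of the partner's exonic bases that lies within the antisense gene's span. The pairs lie along the diagonal with a Pearson r of 0.66, with r at 0.88 where the span holds over 50% and up to 90% of the partner's exonic bases and at 0.55 where it holds more, and the 4 ringed pairs were called in opposite directions.

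How closely a pair moved together differed between layouts. Tail-to-tail pairs differed least, with a median absolute difference in log2 fold change of 0.10 between member and partner and a Pearson r of 0.89 over 81 pairs, with 29 pairs changed the same way and 0 in opposite ways. Members inside the partner differed by a median of 0.13 (r = 0.82 over 95 pairs). Head-to-head pairs differed by 0.21 (r = 0.42 over 115 pairs) and the 10 divergent pairs that do not overlap by 0.49 (r = -0.52). These 10 were taken without a limit on distance and include SRGAP2-AS1, which lies far from SRGAP2 on the same chromosome. The pairs whose partner lies wholly inside the antisense span differed by 0.33 (r = 0.52 over 20 pairs). In the 115 pairs with neighbouring starts 24 members rose and 19 fell, or 37.4% in all, near the 38.8% of all members, and 22 pairs changed the same way and 3 in opposite ways. By the share of the partner's exonic bases within the antisense span, r was -0.60 over 14 pairs with none, 0.46 over 72 pairs with up to 5%, 0.67 over 111 pairs up to 25%, 0.79 over 45 pairs up to 50%, 0.88 over 50 pairs up to 90% and 0.55 over 29 pairs above that. SRGAP2-AS1 is also among the 14 pairs with none. The agreement did not rise throughout with the share. The smallest median absolute difference, 0.10, was in the pairs with over 25% and up to 50%, against 0.12 up to 90% and 0.16 above that. These are descriptions over pairs and carry no test.

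The difference between the change of a member and that of its partner was tested directly on the log2 ratio of the 2 values, over all 505 named pairs with both means of at least 10. With the limma fit no pair passed the threshold, and the smallest adjusted p was 0.274. At an unadjusted p under 0.05, 9 members were higher and 36 lower in ratio. That fit shared little information on variance between pairs, with 1.79 prior degrees of freedom, against 25.8 in the fit over all genes. Differences in ratio were therefore hard to detect, and the lack of calls does not show that ratios stayed the same. An interaction fitted with edgeR on whole reads, added after the data were seen, gave 0 calls too, with a smallest adjusted p of 0.0523. A limma fit whose variance depends on the level of the genes, added after the data were seen, called 6 members whose ratio rose and 23 whose ratio fell, beside 1.58% and 4.55% of the 505 pairs. The limma and edgeR fits above called 0.0% of them. No pair is therefore described as having changed in its ratio, and the pairs below are given for the direction of each gene's own change. GNG12-AS1, chosen after its values were seen, lay among the pairs with the widest gap between member and partner. It is head to head with GNG12, a G protein gamma subunit gene, and was not called, with 705 and 679.8 normalized counts in shBDH1, against 712 and 797 in shcontrol (log2 fold change -0.12, SE 0.10, adjusted p = 0.353). GNG12 had 42.3 and 56.3 normalized counts in shBDH1, against 9.24 and 3.07 in shcontrol (log2 fold change 2.95, SE 0.65, adjusted p = 0.000493).

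In 3 of the 4 opposite pairs the antisense row fell and the partner rose. TMCC1-AS1 (chr3:129893811-129918575) is divergent from TMCC1, the gene of a membrane protein of the endoplasmic reticulum, and has no coding exon opposite it. It had 227 and 302 normalized counts in shBDH1, against 391 and 404 in shcontrol (log2 fold change -0.60, SE 0.15, adjusted p = 0.00212), while TMCC1 had 1083 and 959 normalized counts in shBDH1, against 745 and 775 in shcontrol (log2 fold change 0.42, SE 0.09, adjusted p = 0.000432). The groups did not overlap in either gene. ACVR2B-AS1, head to head with the gene of an activin receptor, had 160.2 and 136 normalized counts in shBDH1, against 217 and 259.6 in shcontrol (log2 fold change -0.68, SE 0.19, adjusted p = 0.00532), and ACVR2B had 3794 and 3477 normalized counts in shBDH1, against 3365 and 3247 in shcontrol (log2 fold change 0.14, SE 0.06, adjusted p = 0.049). The rise of ACVR2B lay just inside the threshold.

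SCOC-AS1, which lies within the span of SCOC, the gene of a coiled-coil protein of the Golgi, had 409 and 459 normalized counts in shBDH1, against 661 and 523 in shcontrol (log2 fold change -0.44, SE 0.13, adjusted p = 0.00531). SCOC had 2497 and 2635 normalized counts in shBDH1, against 2361 and 2131 in shcontrol (log2 fold change 0.19, SE 0.06, adjusted p = 0.0147). OTUD6B-AS1 went the other way. It is divergent from OTUD6B, the gene of a deubiquitinase, and had 1308 and 1324 normalized counts in shBDH1, against 1102 and 1162 in shcontrol (log2 fold change 0.22, SE 0.08, adjusted p = 0.025), while OTUD6B had 1605 and 1844 normalized counts in shBDH1, against 1931 and 2069 in shcontrol (log2 fold change -0.22, SE 0.07, adjusted p = 0.0162). The count of opposite pairs depended on single libraries and on the tool, with 0 without shBDH1 replicate 1, 2 without each other library in turn, 2 with DESeq2 and 1 with no filter on low values. Without shBDH1 replicate 1 the log2 fold change of TMCC1-AS1 was -0.40 (adjusted p = 0.0758) and that of OTUD6B-AS1 was 0.23 (adjusted p = 0.0698). Without shcontrol replicate 1 that of SCOC-AS1 was -0.27 (adjusted p = 0.175), and without shcontrol replicate 2 that of ACVR2B-AS1 was -0.55 (adjusted p = 0.0847).

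**Figure D3:**
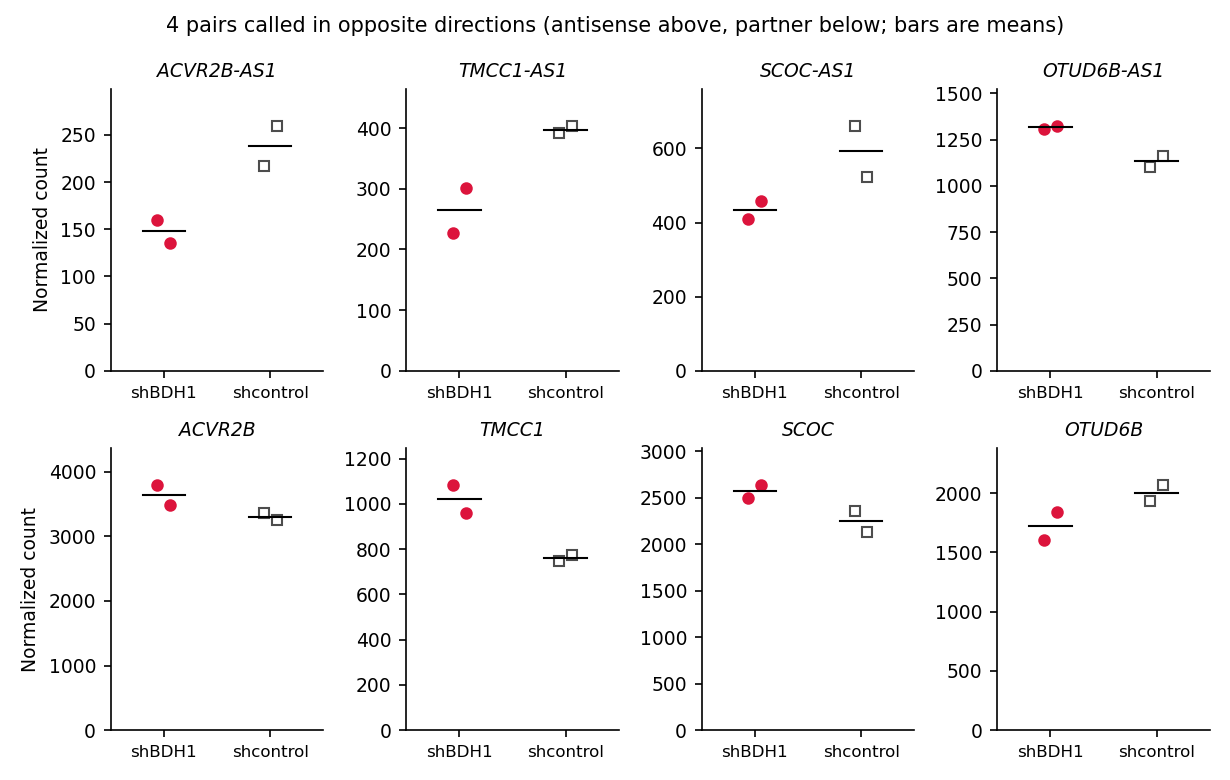
Normalized counts of the 4 pairs whose genes were called in opposite directions, antisense row above and partner below, with shBDH1 libraries as filled circles on the left, shcontrol libraries as open squares on the right and bars for the means. The antisense row is lower in shBDH1 in ACVR2B-AS1, TMCC1-AS1 and SCOC-AS1 and higher in OTUD6B-AS1, and the groups do not overlap in any of the 8 panels.

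The level of the coding exons opposite each member was then set beside the member's own value. For every member, the normalized count of each coding gene on the opposite strand that has a row in the table was multiplied by the share of its exonic bases that lies within the member's gene span, introns included, and these were added up. This opposite-exon value is in normalized counts, not divided by length, and assumes reads spread evenly along exons. It covers the whole gene span, while the sources used here do not say whether a row holds reads over exons only. For 9 members an opposite coding gene had no row here and did not enter, with at least 10% of that gene's exonic bases in the span in 8 of them, SDCBP2-AS1 and TSPOAP1-AS1 included. It was above 0 for 321 members. The antisense row was within 1.5 times of it, either way, in 133 members, over 3 times higher in 84 and under it in 75, with a median ratio of 1.505. Among the 275 members with an opposite-exon value of at least 50, the log2 fold changes of the 2 quantities had a Pearson r of 0.83, as a description.

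Members with large changes lay on both sides of this comparison. The mean over the 4 libraries was 0.978 times the opposite-exon value for FLNC-AS1, 1.19 times for KRT73-AS1, 0.953 times for IGFBP7-AS1, 0.831 times for VAV3-AS1, 0.913 times for PITRM1-AS1 and 1.10 times for GAS6-AS1. It was 1.67 times for SH3BP5-AS1, 1.91 times for RGMB-AS1 and 1.68 times for VIM-AS1, and 3.88 times for SIAH2-AS1, 4.48 times for VLDLR-AS1, 8.43 times for WDFY3-AS2 and 10.2 times for FGD5-AS1. In each of these the opposite exons that weighed most were those of the partner in the name.

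**Figure D4:**
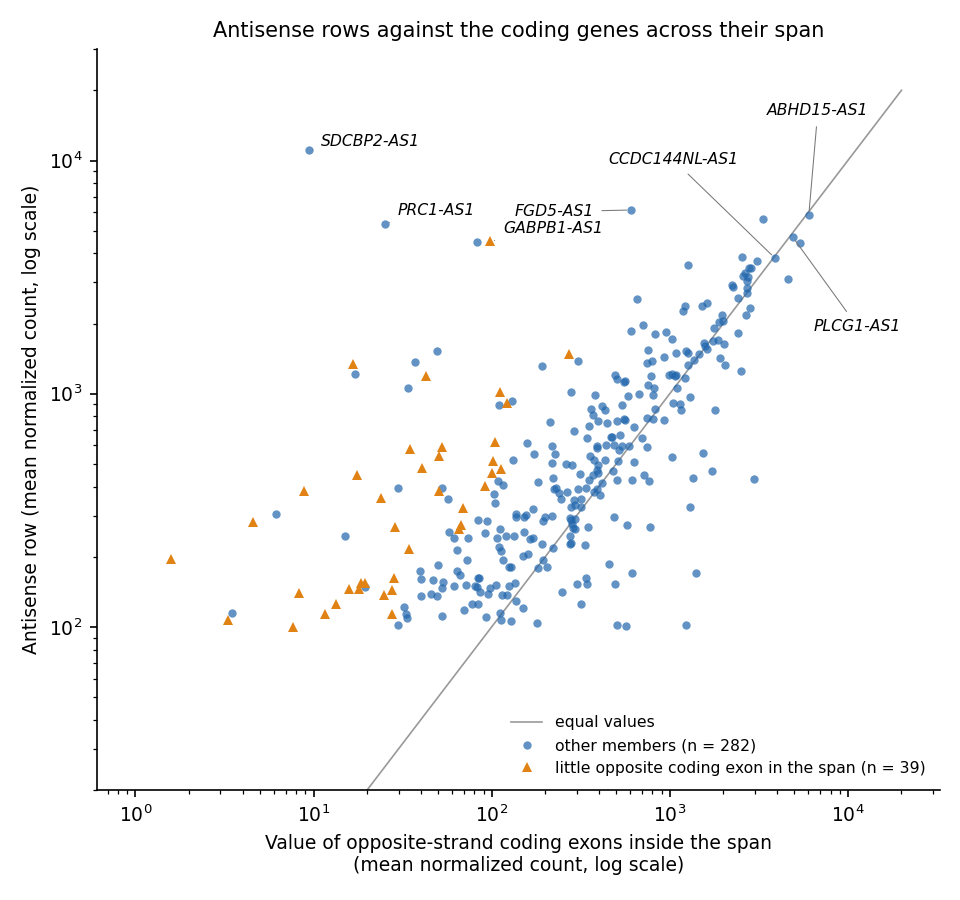
Mean normalized count of each antisense row over the 4 libraries on the vertical axis against its opposite-exon value on the horizontal axis, both on log scales, for the 321 members with a value above 0. Many members lie along the line of equal values, ABHD15-AS1, PLCG1-AS1 and CCDC144NL-AS1 among them, while SDCBP2-AS1, FGD5-AS1, PRC1-AS1 and GABPB1-AS1 lie far above it, and the value for SDCBP2-AS1 leaves out an opposite coding gene with no row here.

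At several loci the match was to a coding gene other than the one in the name. These examples were chosen after their values were seen. CCDC144NL-AS1 (chr17:20868433-21002276) had 3898 and 3669 normalized counts in shBDH1, against 3876 and 3881 in shcontrol. Its opposite-exon value was 4097 and 3762 in shBDH1, against 3944 and 3704 in shcontrol, nearly all from USP22, the deubiquitinase of the SAGA complex, while CCDC144NL had a mean under 10. The row stood close to its opposite-exon value in each library, and neither CCDC144NL-AS1 nor USP22 was called.

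ABHD15-AS1 (chr17:29560547-29707090), which has exons of 4 coding genes on the opposite strand within its span, had 5805 and 5603 normalized counts in shBDH1, against 5997 and 5859 in shcontrol. Its opposite-exon value was 5984 and 6079 in shBDH1, against 6206 and 5866 in shcontrol, led by GIT1, a GTPase-activating protein for ARF proteins. PLCG1-AS1, named for phospholipase C gamma 1, had 4804 and 4487 normalized counts in shBDH1, against 4561 and 4892 in shcontrol. The exons opposite it, led by TOP1, the gene of DNA topoisomerase I, gave 4850.2 and 4734 in shBDH1, against 4959 and 5116 in shcontrol. Row and opposite exons were close in level at both loci. In the limma fit GIT1 fell (log2 fold change -0.40, adjusted p = 4.33e-07), as did TOP1 (-0.11, adjusted p = 0.0475), while neither antisense row was called. ELF3-AS1 had 1348 and 1144 normalized counts in shBDH1, against 1110.0 and 1193 in shcontrol. Its opposite-exon value, led by the aminopeptidase gene RNPEP, was 1179 and 1082 in shBDH1, against 1066 and 1027 in shcontrol, while the epithelial ETS factor gene ELF3 was listed at 0 in both shcontrol libraries. Averaged over the libraries, the row was 0.964 times its opposite-exon value for ABHD15-AS1, 0.953 times for PLCG1-AS1 and 1.10 times for ELF3-AS1.

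USP2-AS1 rose while its partner USP2, the gene of a deubiquitinase, was not called. USP2-AS1 had 1047 and 1100.2 normalized counts in shBDH1, against 722 and 779.8 in shcontrol (log2 fold change 0.52, SE 0.09, adjusted p = 2.76e-05), and USP2 had 597 and 663 normalized counts in shBDH1, against 699 and 789 in shcontrol (adjusted p = 0.0662). All exonic bases of THY1, a glycoprotein of the T-cell surface, lie within the span of USP2-AS1 on the opposite strand, and THY1 had 1316 and 1256 normalized counts in shBDH1, against 772 and 808 in shcontrol (log2 fold change 0.70, adjusted p = 8.41e-08). The antisense row and THY1 rose in the same libraries. STARD4-AS1 likewise rose, with 3785 and 4013 normalized counts in shBDH1, against 2869 and 3223 in shcontrol (log2 fold change 0.36, SE 0.06, adjusted p = 1.02e-05). Its opposite-exon value, led by NREP, was 3108 and 3191 in shBDH1, against 2557 and 2559 in shcontrol.

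PRC1-AS1 is a locus where the coding gene was listed near 0 and the antisense row was high. PRC1 bundles microtubules of the central spindle and is expressed in dividing cells in general, yet its row had 1.97 and 2.01 normalized counts in shBDH1, against 3.08 and 6.13 in shcontrol. PRC1-AS1 (chr15:90966345-90988624) had 5693 and 5824 normalized counts in shBDH1, against 4910.1 and 5017 in shcontrol (log2 fold change 0.21, SE 0.05, adjusted p = 0.000358), and its span holds 72.3% of the exonic bases of PRC1. In the annotation, 97.2% of the exonic bases of PRC1 also lie within the span of another gene on its own strand. SDCBP2-AS1 (chr20:1325405-1378734) had 11143 and 11584 normalized counts in shBDH1, against 10716 and 10798 in shcontrol, and its span holds 86.8% of the exonic bases of FKBP1A, the gene of the protein that binds the drug tacrolimus, whose values were not analysed here and did not enter the opposite-exon value of 9.37. These values belong to the rows as annotated, and which strand the reads came from was not tested.

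Other loci showed no such match. HORMAD2-AS1 had 186 and 146 normalized counts in shBDH1, against 197 and 153 in shcontrol, and its opposite-exon value was far higher, with 1524 and 1674 in shBDH1, against 1165 and 1241 in shcontrol, led by MTMR3, the gene of a phosphoinositide phosphatase. RAD21-AS1, with a mean of 328, had an opposite-exon value of 1298, and MID1IP1-AS1, with a mean of 465, one of 1719. SRRM2-AS1 and EP300-AS1, at the lower limit of the list, had opposite-exon values of 569 and 1229. In these members coding exons within the span came with few counts on the antisense row. SRGAP2-AS1 is a case of the name alone, since it lies at chr1:121360156-121398806, 84804539 bases from the start of SRGAP2. Exons of SRGAP2C lie within its span on the opposite strand.

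A smaller group of 48 members had little coding exon opposite them, with less than 10% of the exonic bases of any opposite coding gene in the span and an opposite-exon value under 25% of their own. This group was formed after the values were seen. In it 6 members rose and 11 fell, or 35.4% in all, near the 38.8% of all members and the 41.1% of all genes tested. Their median log2 fold change was -0.12, while 17 of their partners rose and 13 fell. In 14 of the pairs both genes were called, 11 in the same direction and 3 in opposite directions, and r between the log2 fold changes was 0.48.

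Members of that group that fell included WARS2-AS1, head to head with the gene of the mitochondrial tryptophanyl-tRNA synthetase, with 1213 and 1157 normalized counts in shBDH1, against 1511 and 1500.3 in shcontrol (log2 fold change -0.35, SE 0.07, adjusted p = 0.000408). KTN1-AS1, head to head with the gene of the kinesin-binding protein kinectin, had 477 and 453 normalized counts in shBDH1, against 677 and 712 in shcontrol (log2 fold change -0.58, SE 0.11, adjusted p = 8.18e-05), while KTN1 was not called at 0.07 (adjusted p = 0.203). RNASEH1-AS1, opposite a ribonuclease gene that acts on RNA-DNA hybrids, had 261 and 244 normalized counts in shBDH1, against 339.9 and 452 in shcontrol (log2 fold change -0.63, SE 0.15, adjusted p = 0.00153), and RNASEH1 was not called at 0.03 (adjusted p = 0.804). In each of these 3 the shBDH1 libraries were both below the shcontrol libraries.

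SLC16A1-AS1, head to head with the gene of the monocarboxylate carrier MCT1, which moves lactate and ketone bodies, had 748 and 865 normalized counts in shBDH1, against 1028 and 1017 in shcontrol (log2 fold change -0.35, SE 0.09, adjusted p = 0.00308), and SLC16A1 fell by 0.27 on the log2 scale. VAC14-AS1, ELMO1-AS1, CIRBP-AS1, TONSL-AS1, FBXL19-AS1, SCOC-AS1 and TMCC1-AS1 made up the rest of the 11 that fell, with log2 fold changes from -0.89 for VAC14-AS1 to -0.37 for CIRBP-AS1. RASSF8-AS1, head to head with the gene of a Ras-association domain protein, rose, with 553 and 475 normalized counts in shBDH1, against 435 and 327 in shcontrol (log2 fold change 0.44, SE 0.14, adjusted p = 0.0109). The others that rose were WDFY3-AS2, STXBP5-AS1, UBE2Q1-AS1, OTUD6B-AS1 and RNASEH2B-AS1, the last at 0.20 (adjusted p = 0.0347). STXBP5-AS1, whose partner regulates vesicle fusion and whose upstream sequence is printed above, had 235 and 124 normalized counts in shBDH1, against 108 and 109 in shcontrol, so that shBDH1 replicate 1 was well above the other 3 libraries.

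Lists of antisense RNAs by the role of their partner gave small counts, to be read beside the 16.1% of all members that rose and the 22.7% that fell, and the 20.3% and 20.8% of all genes tested. Among 23 members with experimentally described functions 3 rose (PTOV1-AS1, VIM-AS1 and FGD5-AS1) and 3 fell, GAS6-AS1 the most, with a median log2 fold change of -0.06. PTOV1-AS1 had 742 and 542 normalized counts in shBDH1, against 421 and 429 in shcontrol (log2 fold change 0.58, SE 0.13, adjusted p = 0.000568), and its partner PTOV1 was not called. Among 6 members with partners of lymphoid or immune function 2 rose and 1 fell, with a median of 0.02.

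Those 3 were RORA-AS1, MYB-AS1 and CD81-AS1. RORA-AS1, tail to tail with a nuclear receptor gene, had 2456 and 2595 normalized counts in shBDH1, against 1569 and 1553 in shcontrol (log2 fold change 0.69, SE 0.06, adjusted p = 6.23e-10). RORA had 2809 and 2728 normalized counts in shBDH1, against 1631 and 1721 in shcontrol, and 89.8% of its exonic bases lie in the antisense span. MYB-AS1, inside the gene of a transcription factor of early blood cells and T-cell leukaemia, had 1565 and 1466 normalized counts in shBDH1, against 2182 and 2212 in shcontrol (log2 fold change -0.54, SE 0.07, adjusted p = 1.56e-07), and MYB fell by 0.40 on the log2 scale. CD81-AS1, head to head with the gene of a tetraspanin of lymphocytes, rose by 0.57 on the log2 scale (adjusted p = 0.00705). Each of the 3 changed in the direction of its partner.

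Of 14 members with mitochondrial or metabolic partners 2 rose and 3 fell, with a median log2 fold change of -0.13, and of 14 with partners of translation, proteasome or RNA processing 2 rose and 4 fell, with a median of -0.17. In the first list the called members included STARD4-AS1 and ATP6V0E2-AS1, opposite a sterol carrier and a proton pump subunit, which rose, and SLC16A1-AS1 and ENTPD3-AS1, opposite MCT1 and an ectonucleotidase, which fell. In the second they included USP2-AS1, which rose, and NOP14-AS1, RBM26-AS1 and PAXIP1-AS2, which fell by 0.22, 0.58 and 0.35 on the log2 scale. PAXIP1 is known for the DNA damage response, not for that list's roles, while NOP14 acts in small ribosomal subunit assembly and RBM26 binds RNA. Of 7 members with cell cycle or DNA maintenance partners 2 rose, PRC1-AS1 and SMC5-AS1 (log2 fold change 0.48), and 1 fell, CKMT2-AS1 (-0.34), whose partner is a mitochondrial creatine kinase and not a cell cycle gene. The median of that list was -0.04.

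Of 11 members opposite zinc finger genes 0 rose and 5 fell, against 16.1% and 22.7% of all members and 20.3% and 20.8% of all genes tested, with a median log2 fold change of -0.29, while 1 of their partners rose and 3 fell. ZNF710-AS1 had 1015 and 825 normalized counts in shBDH1, against 1356 and 1557 in shcontrol (log2 fold change -0.67, SE 0.09, adjusted p = 9.22e-07), and ZNF710 fell by 0.37 on the log2 scale. ZNF213-AS1 had 254 and 302 normalized counts in shBDH1, against 413 and 445 in shcontrol (log2 fold change -0.63, SE 0.14, adjusted p = 0.00069), with ZNF213 down by 0.45 on the same scale. ZNF451-AS1, ZKSCAN7-AS1 and ZNF350-AS1 were the other members of this list that fell, with log2 fold changes of -0.29, -0.40 and -0.86. ZKSCAN7 itself had a mean under 10, and the opposite-exon value of ZKSCAN7-AS1 came mostly from the neighbouring ZNF197, which was not called, and leaves out an opposite coding gene with no row here. With 11 members the counts describe this list and were not tested as a set.

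Among the 20 members with the largest rises and falls, 14 kept their call whichever single library was left out, and of all 128 called members 66 did. edgeR's quasi-likelihood test on whole reads gave the same call in 127 of the 128, and DESeq2 in 101. Beside TMCC1-AS1 and ACVR2B-AS1, whose values without 1 library stand above, the named members outside those 20 that lost their call without 1 library are given here with the largest adjusted p over the 4 refits. Without shBDH1 replicate 1 the log2 fold change was 0.19 for STXBP5-AS1 (adjusted p = 0.681), 0.41 for SRGAP2-AS1 (adjusted p = 0.207), -0.24 for SLC16A1-AS1 (adjusted p = 0.0769) and 0.35 for PTOV1-AS1 (adjusted p = 0.0761). In the same refit it was -0.41 for FBXL19-AS1 (adjusted p = 0.055). Without shcontrol replicate 1 the log2 fold change was 0.12 for RNASEH2B-AS1 (adjusted p = 0.371), -0.36 for ENTPD3-AS1 (adjusted p = 0.196), 0.15 for ATP6V0E2-AS1 (adjusted p = 0.192) and -0.27 for SCOC-AS1 (adjusted p = 0.175). In the same refit it was 0.34 for UBE2Q1-AS1 (adjusted p = 0.174), 0.18 for OTUD6B-AS1 (adjusted p = 0.169) and -0.37 for TONSL-AS1 (adjusted p = 0.0553). Without shcontrol replicate 2 the log2 fold change was 0.27 for SMC5-AS1 (adjusted p = 0.328), 0.23 for RASSF8-AS1 (adjusted p = 0.244), 0.40 for CD81-AS1 (adjusted p = 0.104) and -0.43 for RNASEH1-AS1 (adjusted p = 0.0872). In the same refit it was -0.47 for RBM26-AS1 (adjusted p = 0.0715).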

How the data were processed

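RNA was measured by mRNA sequencing in 2 shBDH1 and 2 shcontrol libraries of Jurkat cells. The submitters' processing notes name hg38, FastQC 0.11.9 and HISAT2 2.2.1. No counter, annotation release or strand setting is given in the sources used here. The values deposited by the authors are a normalized signal, read counts divided by 1 size factor per library (1.0174 and 0.9944 for shBDH1, 0.9739 and 0.9785 for shcontrol). Multiplied back, 100.0% of the values of each library were whole reads to within 0.01. For 21 genes a date stood in place of the gene symbol, and 25010 of 25122 gene IDs had a position in GENCODE 29. No per-library column was left unused. TMSB15B is the symbol of more than 1 coding row, and the first was used.

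The members and lists were chosen with earlier results of these data known, and the lists may reflect them. Genes with a mean of at least 10 were fitted with limma 3.58.1 in R 4.3.3 on log2(value + 1), with a trend in the variance, Benjamini-Hochberg adjustment over all genes tested and a threshold of 0.05. The planned fit was kept for the deposited values because they are not raw counts. A fold change on this scale understates the change of low genes. The pair ratio was fitted over 505 named pairs. Its edgeR interaction and its fit with the variance trend on the level were added after the data were seen. edgeR 4.0.16 (quasi-likelihood) and DESeq2 1.42.0 on the recovered whole reads, other scalings, pseudocounts and filters, a replicate block and leaving out each library were tried as alternatives. Same-numbered libraries did not deviate together (correlation 0.0013), and the labels do not say whether the numbers pair them. The functions were tested on simulated data.

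Named in the text are BDH1, the 10 largest rises and falls among called members whose groups do not overlap, the 8 highest means, up to 4 members of each list by p, and the 3 members just above and 3 rows just below the mean of 100. Opposite pairs, members with little opposite coding exon and the loci compared with other coding genes were chosen after their values were seen. Promoter sequences are from RefSeq, where 269 of the 326 partners matched by symbol.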

Additional observations from a re-analysis of the deposited data

How the results depend on the processing

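No paired analysis carried weight, since the labels give no pairing and same-numbered libraries did not deviate together. With the replicate block 58 members rose and 77 fell, 97 pairs changed in the same direction, 5 in opposite directions, and the ratio test again called 0. Leaving out each library in turn gave 34 to 43 members that rose, 58 to 63 that fell, 68 to 76 partners that rose, 75 to 79 that fell, 70 to 75 pairs changed the same way, 0 to 2 in opposite ways, 0 ratios called in either direction and a BDH1 change of -0.57 to -0.36. Pairs in opposite directions numbered 2 with DESeq2 and 1 with no filter, against 4, and 3 to 5 under the other scalings, pseudocounts and filters. The level-dependent ratio fit called 6 rises and 23 falls, against 0 and 0. The cause of these differences was not tested. The other counts stayed within 1.5 times, except that of members that rose when shBDH1 replicate 1 was left out. Upper-quartile scaling, which moved the median of all genes to 0.04, gave 62 members that rose and 69 that fell. Of 312 single-member refits for 24 members 295 kept call and direction, 17 lost the call and 0 reversed. With 2 libraries a group, standard errors of members were a median of 0.21 at means of 100 to 300 and 0.07 from 1000 up. Those of coding genes were 0.199 and 0.063, so small changes were harder to detect in weak rows of both kinds.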
